A study of Mus musculus with 2 samples.

Results

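Dividing neutrophil precursors were taken from the spleen cells of 1 control mouse and 1 mouse with sickle cell disease (SCD) by single-cell RNA sequencing. A cell was counted as a precursor when at least 1% of its unique molecular identifiers (UMIs, each standing for 1 captured transcript) came from S100a8 and S100a9, at least 1% from the granule genes Camp, Ngp and Ltf, and under 0.5% from the azurophil genes Elane, Mpo, Prtn3 and Ctsg, and when it held at least 5 UMIs of Top2a, Mki67, Ube2c, Birc5, Cenpf, Nusap1, Prc1 and Spc25. These measured values chose the cells, so their levels are given as a description. The rule was met by 950 of the 21573 cells that had at least 500 genes, under 15% mitochondrial and under 30% ribosomal UMIs, out of 24292 deposited cells. Of these precursors, 80 came from the wild-type and 870 from the SCD library.

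The wild-type control mouse was homozygous for Hbatm1Paz, heterozygous for Hbbtm1Tow and hemizygous for Tg(HBA-HBBs)41Paz, a combination that does not sickle. The SCD mouse was homozygous for all 3 alleles and sickles, so both mice carried Hbatm1Paz on both chromosomes and human globin transgenes in different copy numbers. Both were untreated and aged 12 to 16 weeks, and mature erythrocytes had been lysed. A bead kit meant for dendritic cells (DCs) had depleted other cells, so the neutrophils described here are those that this negative enrichment left behind. With 1 mouse per genotype there is no replicate check. Genotype, animal and library cannot be told apart, and the intervals below are exact 95% binomial or Poisson intervals that cover counting error only.

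Neutrophils arise from promyelocytes, which make the azurophil granule proteases and myeloperoxidase. Myelocytes, the last stage that divides, make the specific granule proteins such as lactoferrin (Ltf), cathelicidin (Camp) and neutrophilic granule protein (Ngp) under the transcription factor C/EBPε. Later stages stop dividing and make gelatinase granules. In mice the spleen keeps some granulocyte production in adult life, and this can grow when marrow output is under demand.

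The wild-type library held 10845 cells with a median of 4991 UMIs and the SCD library 13447 cells with a median of 8596 UMIs, and 9718 and 11855 cells passed the filters. Hbb-bs, a mouse adult β-globin gene removed by Hbbtm1Tow, stood at 1765 CPM (a gene's UMIs scaled to one common total of UMIs for every set of cells) in the kept wild-type cells and at 16.3 CPM in the kept SCD cells, in the direction the labels give. Hba-a1, the α-globin gene that Hbatm1Paz removes, was nevertheless counted at 926 and 1289 CPM, which goes against the label of both mice, and the reason was not tested. The libraries shared 88 cell barcodes, none of them among the precursors. Free transcripts were measured in plasmacytoid DCs, which should hold no granule transcripts. Their median share of S100a8 and S100a9 was 0.0507% in the wild-type and 0.326% in the SCD library, below the limit of 1%. Both the S100 and the granule limit were nevertheless reached by 5 of 792 wild-type and 45 of 650 SCD plasmacytoid DCs (0.631% and 6.92%), of which 2 and 16 were counted as precursors. Of erythroid cells 2 of 212 and 36 of 631 (0.943% and 5.71%) reached both, and 1 and 34 of them were counted as precursors.

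The precursors carried the transcripts of a dividing, granule-making cell. Their median shares of S100a8 and S100a9, the subunits of calprotectin, were 29.6% of UMIs in the wild-type and 31.3% in the SCD library. Camp, Ngp and Ltf made up a median of 11.0% in both. The mitotic genes of the rule gave a median of 73.5 UMIs per wild-type precursor (range 5 to 315) and 56 per SCD precursor (5 to 388). The medians lie far above the limits. Near the mitotic limit, 3 wild-type and 41 SCD cells that met the other limits had 4 mitotic UMIs, 3 and 80 had 3, and 22 and 231 had 2, while 2 and 36 precursors had 5. No wild-type and 7 SCD cells had a granule share of 0.8% to 1% and met the other limits, and 0 and 7 precursors had a share of 1% to 1.2%. An azurophil share of 0.4% to 0.5% was found in 0 and 9 precursors, and 1 and 9 cells that met the other limits had 0.5% to 0.6%. No azurophil UMI at all was found in 50 wild-type and 203 SCD precursors. The markers that name the stage are genes of the rule and so had to be present, with Top2a at 754 and 576 CPM, Ube2c at 559 and 518 CPM and Nusap1 at 222 and 193 CPM in the wild-type and SCD precursors.

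A number of precursors also held transcripts of another lineage. At least 5 UMIs from 1 of 10 marker lists of other cell types were found in 4 of 80 wild-type precursors (5.00%, 1.38% to 12.3%) and 149 of 870 SCD precursors (17.1%, 14.7% to 19.8%). In the SCD library 93 of them reached this with monocyte markers, 48 with erythroid, 17 with plasmacytoid DC, 15 with macrophage, 14 with DC and 13 with B cell markers, 9 with T and NK cell markers and 4 each with eosinophil and basophil markers, while none reached it with megakaryocyte markers. Among the non-dividing granule-stage cells such markers were held by 6.40% in the wild-type library and 2.64% in the SCD library. A doublet caller marked 1 wild-type and 49 SCD precursors, and 4 and 168 precursors had either property. The 168 SCD cells had a median of 29082 UMIs and 4894 genes against 18756 UMIs and 3165 genes in the other 702. Their median S100 share was 15.8% against 32.5%, their granule share 4.75% against 11.4% and their ribosomal share 13.7% against 4.93%. Whether they were doublets, cells of another lineage in droplets with neutrophil RNA or cells of mixed character was not tested. Results are therefore given for all precursors, for the reduced set of 76 wild-type and 702 SCD precursors without them, or for both, as named with each. The reduced set was defined after the data had been seen.

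**Figure D1:**
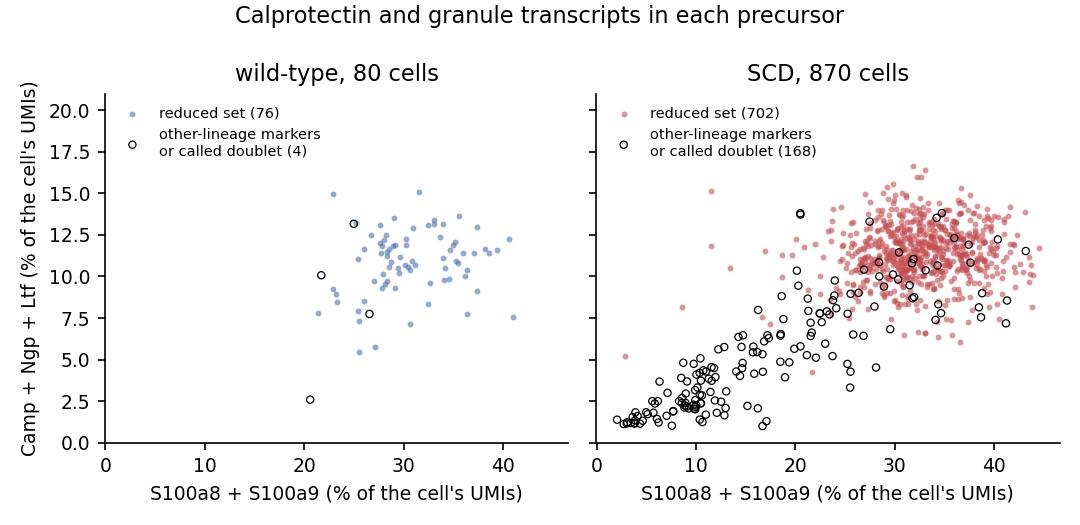
Share of S100a8 and S100a9 (x axis, percent of the cell's UMIs) against the share of Camp, Ngp and Ltf (y axis, percent) in each precursor of the wild-type (left, 80 cells) and SCD (right, 870 cells) library. Filled points are the reduced set (76 and 702 cells) and open circles are the 4 and 168 precursors with markers of another lineage or a doublet call, most of which lie at low shares in the SCD library.

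The SCD library held a larger share of dividing precursors. They were 80 of 9718 kept wild-type cells (0.823%, 0.653% to 1.02%) and 870 of 11855 kept SCD cells (7.34%, 6.88% to 7.82%), a ratio of 8.92 (7.08 to 11.4). In the reduced set the shares were 0.782% and 5.92%, a ratio of 7.57 (5.97 to 9.73). As a share of all neutrophils, defined by the S100 limit alone, the precursors were 1.73% and 11.1%, a ratio of 6.45. All of these ratios lie well above 1 in counting terms, but the shares also move with the other cells that the bead kit left, since neutrophils made up 47.7% of the kept cells in the wild-type library and 65.9% in the SCD library.

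Most of this difference was shared with the non-dividing cells of the same granule stage. Granule-stage neutrophils, dividing or not, were 577 wild-type cells (5.94% of kept cells) and 4552 SCD cells (38.4%), a ratio of 6.47 (5.93 to 7.06). Within them 13.9% (11.2% to 17.0%) of the wild-type cells were precursors, against 19.1% (18.0% to 20.3%) of the SCD cells, which gives a ratio of 1.38 (1.10 to 1.76). With every cell thinned to 2000 UMIs and dividing cells taken at 3 mitotic UMIs or more, the shares were 10.2% of 571 and 13.6% of 4532 cells, a ratio of 1.34 (1.02 to 1.79), with 6 and 20 shallower cells left out. In the reduced set the ratio was 1.17 (0.919 to 1.497) for the unthinned shares of 14.5% and 16.9%, and 1.23 (0.921 to 1.67) after thinning, so that without the cells of mixed markers the intervals included 1. Azurophil-rich dividing cells, taken without an S100 or granule limit, stood at 0.268% and 3.41% of kept cells, a ratio of 12.7 (8.57 to 19.7).

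**Figure D2:**
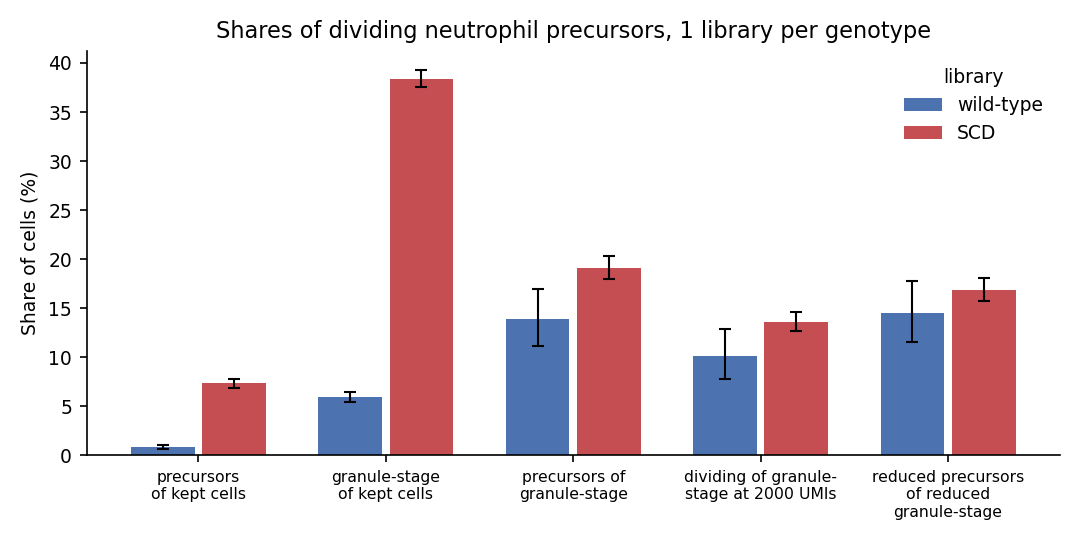
Shares of cells in percent (y axis) in the wild-type (blue) and SCD (red) library, with exact 95% binomial intervals as error bars. The SCD bars are higher for precursors (7.34% against 0.823%) and granule-stage neutrophils (38.4% against 5.94%) of kept cells. The dividing share of granule-stage cells differed less, at 19.1% (SCD) against 13.9% (wild-type) for all precursors, with intervals that do not meet. This share was 13.6% against 10.2% after thinning and 16.9% against 14.5% in the reduced set, with intervals that overlap in both.

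Precursors were next compared with non-dividing granule-stage neutrophils of the same library, which met the same S100, granule and azurophil limits but held at most 1 mitotic UMI (469 wild-type and 3330 SCD cells). A gene counted as expressed at 50 CPM and 20 UMIs or more in at least 1 of the compared groups, and fold changes are log2 ratios of CPM plus 5. Over all precursors 416 of 2489 genes (16.7%) were at least 2-fold higher and 277 (11.1%) lower in the wild-type library, and 690 of 2518 (27.4%) higher and 227 (9.02%) lower in the SCD library. In the reduced sets 483 of 2438 genes (19.8%) were at least 2-fold higher in the wild-type precursors and 261 (10.7%) at least 2-fold lower. In the SCD library 375 of 2247 genes (16.7%) were at least 2-fold higher and 231 (10.3%) lower. Of these genes 356 were higher and 199 lower in both libraries. Since the mitotic genes that separate the 2 sets also chose the cells, cell cycle genes had to differ and are given as a description. Precursors had the deeper profiles, with a median of 21450 UMIs against 9826 in all non-dividing wild-type cells and 18756 against 8798 in the SCD library.

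The cell cycle genes outside the rule were higher as a group. All 32 expressed genes of a G2/M list in the wild-type and all 31 in the SCD library were at least 2-fold higher in the precursors of the reduced set, with median log2 ratios of 4.23 and 3.78. All 12 expressed G1/S genes in each library were higher too, with medians of 3.73 and 2.95. Replication-dependent histone genes were higher for 10 of 10 and 11 of 11 expressed members, with medians of 4.06 and 3.83. Hist1h2ap, a histone H2A gene copied during S phase, reached 2179 CPM in wild-type and 3025 CPM in SCD precursors, against 11.9 and 27.8 CPM in non-dividing cells. Histone transcripts mostly lack poly(A) tails, and near-identical histone genes can share reads, so their levels are uncertain. Pclaf, a clamp-binding factor of DNA replication, stood at 627 and 572 CPM against 2.42 and 8.68 CPM. Kif11, the kinesin that pushes spindle poles apart, stood at 195 and 166 CPM against 0.727 and 1.81 CPM. Stmn1, which destabilises microtubules, had 703 and 651 CPM against 5.81 and 19.1 CPM. The 12 highest genes by rule were Hist1h2ap, Hist1h1b, Hist1h2ae, Pclaf, H2afx, Cdca8, Smc2, Stmn1, Kif11, Tpx2, Rrm2 and Kif15, with log2 ratios of 4.73 to 7.02 (wild-type) and 4.36 to 6.53 (SCD).

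Promoters of mitotic and granule genes are shown because the rule asks for transcripts of both kinds. The granule genes of the rule were within 2-fold of the non-dividing granule-stage cells. Kif11 and Fcnb lie outside the rule and were higher in the precursors. The windows are RefSeq promoter sequence of the mouse build GRCm38.p6, at most 150 bases long. They lie upstream of the gene on its own strand and ended where another annotated model of the same gene begins. Those of Mki67 and Kif11 stop short of the listed gene starts, at 135716361 and 37376403. Motifs are in capitals: for the first 4 genes the CCAAT box (CCAAT, or ATTGG on the other strand) and the cell cycle homology region (TTTGAA or TTTAAA, or TTCAAA on the other strand), and for the last 3 a C/EBP-type word (TTGCNNAA, searched on both strands). The positions were chr11:99024190-99024339 on the minus strand for Top2a, chr2:164769779-164769897 on the plus strand for Ube2c, chr7:135716380-135716529 on the minus strand for Mki67, chr19:37376232-37376381 on the plus strand for Kif11, chr9:110419658-110419746 on the plus strand for Ngp, chr9:111019142-111019270 on the plus strand for Ltf and chr2:28084886-28085028 on the minus strand for Fcnb.
Top2a: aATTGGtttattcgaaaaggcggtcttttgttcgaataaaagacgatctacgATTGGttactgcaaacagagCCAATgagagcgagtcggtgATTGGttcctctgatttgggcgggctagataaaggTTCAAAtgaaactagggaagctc
Ube2c: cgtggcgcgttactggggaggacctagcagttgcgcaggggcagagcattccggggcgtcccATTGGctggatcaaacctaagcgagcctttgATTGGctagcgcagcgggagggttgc
Mki67: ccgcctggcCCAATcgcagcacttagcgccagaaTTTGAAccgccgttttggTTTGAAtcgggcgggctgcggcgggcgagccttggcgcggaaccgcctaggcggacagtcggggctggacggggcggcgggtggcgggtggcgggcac
Kif11: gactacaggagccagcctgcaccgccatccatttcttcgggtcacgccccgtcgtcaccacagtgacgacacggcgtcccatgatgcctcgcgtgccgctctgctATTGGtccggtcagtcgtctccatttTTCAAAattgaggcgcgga
Ngp: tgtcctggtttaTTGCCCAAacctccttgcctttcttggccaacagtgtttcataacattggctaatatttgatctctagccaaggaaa
Ltf: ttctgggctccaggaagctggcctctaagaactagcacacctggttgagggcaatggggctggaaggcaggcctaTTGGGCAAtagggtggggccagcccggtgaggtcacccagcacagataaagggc
Fcnb: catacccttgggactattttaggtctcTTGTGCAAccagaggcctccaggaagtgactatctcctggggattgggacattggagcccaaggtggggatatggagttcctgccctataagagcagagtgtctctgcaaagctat

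Top2a, the topoisomerase that untangles chromosomes, has 4 CCAAT words and 1 TTCAAA in its window. Ube2c, the ubiquitin enzyme of the anaphase-promoting complex, has 2 CCAAT words in the printed bases. Mki67 has 1 CCAAT and 2 TTTGAA words, and Kif11 has 1 of each kind. Windows of 150 bases matched 32 of the 38 genes of the G2/M list, and 26 of their 34 windows (76.5%) held CCAAT against 24.5% of all 32851 promoter windows. CCAAT was also in 14 of 31 G1/S windows (45.2%), in 2 of 3 windows of the granule genes of the rule and in 2 of 11 windows of other specific granule genes (18.2%). TTTGAA or TTTAAA was in 14 of these 34 windows (41.2%) against 14.7% of all windows. TTGCNNAA was in 0 of the 34, in 2 of 3 windows of the granule genes of the rule and in 3 of 11 windows of other specific granule genes (27.3%), against 5.46% of all windows. In the Ltf window the word overlaps an ATTGG. An E2F word (TTTCGCGC or TTTGGCGC) was in 3 of 31 G1/S windows (9.68%) against 0.423% of all windows. These counts are letter matches only, and binding was not measured.

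Among the other specific granule genes Fcnb and Chil3 were higher in the precursors of the reduced sets. Fcnb, which encodes the lectin ficolin B, stood at 1071 CPM (wild-type) and 963 CPM (SCD) in the reduced precursors against 132 and 116 CPM in the non-dividing cells, a log2 ratio of 2.97 in the wild-type library and nearly the same in the other. Chil3, a chitinase-like secreted protein, stood at 11982 and 9816 CPM against 4550 and 3715 CPM, log2 ratios of 1.40 in both. These 2 of 12 expressed genes of the list were past 2-fold higher in each library, and 1 and 2 were past 2-fold lower. Of all genes 19.8% and 16.7% were higher and 10.7% and 10.3% lower, so the list's counts lie near those of all genes. The other expressed genes of that list lay near or below the level of non-dividing cells. Lcn2, the siderophore-binding lipocalin, had log2 ratios of -0.33 and 0.03, and Padi4, the enzyme that citrullinates histones, was past 2-fold lower at -1.48 and -1.42. Of the genes used in the rule Camp lay at 0.47 and 0.66 and Ltf at -0.57 and -0.39. Olfm4, an olfactomedin, was past 2-fold lower in the SCD library alone, at -0.09 and -1.05. The sum of the specific granule list outside the rule was 50728 and 52449 CPM in the reduced precursors and 53190 and 49251 CPM in the non-dividing cells. In all precursors it was 49995 and 43262 CPM against 50556 and 48225 CPM, so that the SCD direction differed between the sets.

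Gelatinase granule and late neutrophil genes were lower as groups. The gelatinase list was past 2-fold lower for 4 of 4 expressed genes in the wild-type library and 3 of 4 in the SCD library of the reduced sets, beside 10.7% and 10.3% of all genes. Mmp8, neutrophil collagenase, stood at 74.3 and 65.5 CPM in the precursors against 2911 and 2780 CPM in non-dividing cells. Of its UMIs in the precursors 91.4% and 73.1% lay in 3 wild-type and 27 SCD cells with 10 UMIs or more. Without those cells it stood at 6.54 and 18.5 CPM, so the order of the libraries turned. Mmp9, gelatinase B, stood at 152 and 141 CPM against 2428 and 2413 CPM. Retnlg, a resistin-like protein of mature neutrophils, stood at 148 and 444 CPM against 10800 and 10872 CPM. The late neutrophil list was past 2-fold lower for 8 of 10 and 7 of 9 expressed genes, beside the same 10.7% and 10.3%, among them the receptor genes Cxcr2 (log2 ratios of -1.83 and -1.86) and Fpr2 (-2.10 and -1.98). S100a6 stood at 403 and 570 CPM against 3944 and 5511 CPM, unlike S100a8 and S100a9, which lay at -0.16 to -0.20. The other genes the rule named as lowest were Thbs1, Gpr27, Fpr1, Timp2, Chil5, Bst1, Acvrl1 and Adam8, with log2 ratios of -2.60 to -4.82 (wild-type) and -2.83 to -4.11 (SCD).

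Transcription factors of granulocyte development were mostly within 2-fold. Of 7 expressed members 0 in the wild-type library and 1 in the SCD library (Cebpb) were past 2-fold higher, where 19.8% and 16.7% of all genes were, and 1 in each, Klf2, was past 2-fold lower, where 10.7% and 10.3% were. The list does not stand apart from all genes in these counts. Cebpe, the factor of specific granule synthesis, stood at 697 CPM (wild-type) and 704 CPM (SCD) in the reduced precursors, against 413 and 384 CPM in non-dividing cells. Gfi1, a repressor needed for granulocyte maturation, stood at 39.5 and 32.7 CPM against 11.6 and 9.18 CPM. These values are more than 2-fold apart but under the 50 CPM limit for expressed genes, so the counts above leave Gfi1 out. Cdkn2c, which encodes an inhibitor of the G1 cyclin-dependent kinases, stood at 59.2 and 66.1 CPM against 2.42 and 3.86 CPM, and Klf2, a quiescence factor, at 64.5 and 65.6 CPM against 159 and 170 CPM. Among retention and egress genes 4 of 9 expressed members in the wild-type library and 5 of 8 in the SCD library were past 2-fold lower, beside 10.7% and 10.3% of all genes, and Itgb1, a β1 integrin, was past 2-fold higher in the wild-type library at 1.15 (SCD 0.89). Of the lower genes Selplg, the ligand of selectins, lay at -1.81 and -1.94. Cxcr4, the marrow retention receptor, stood at 184 and 129 CPM against 261 and 237 CPM. Subunits of the NADPH oxidase were already present, with Cybb at 1756 and 1822 CPM and Cyba at 1853 and 1762 CPM. The 6 subunit genes summed to 5817 and 5796 CPM against 7400 and 6975 CPM in the non-dividing cells. Of the 6, 1 was past 2-fold lower in each library, beside 10.7% and 10.3% of all genes. Cd3d, a T cell receptor subunit gene, was found in 59 of 76 and 539 of 702 reduced precursors at 127 and 119 CPM, against 1.78% and 2.07% of plasmacytoid DCs with a UMI, while Cd3e was at 0 in all precursors of both libraries.

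**Figure D3:**
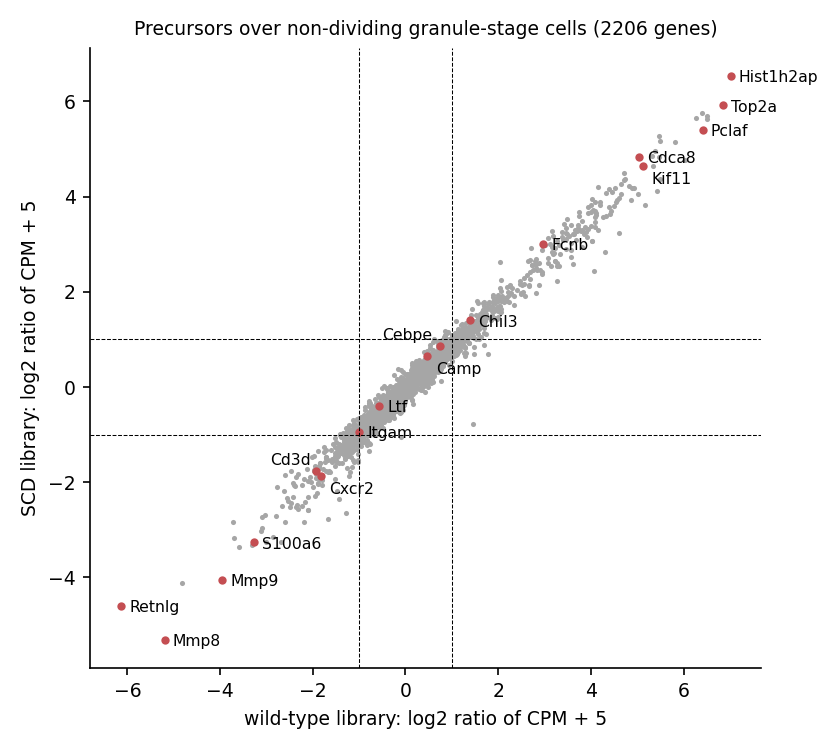
Log2 ratio of CPM plus 5 of the precursors over the non-dividing granule-stage cells in the wild-type (x axis) and the SCD (y axis) library, reduced sets, with each point a gene and dashed lines at 2-fold. Hist1h2ap, Top2a and Pclaf lie among the highest in both libraries, Fcnb near 3 in both, and Mmp8, Mmp9 and Retnlg among the lowest.

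The precursors were also set beside azurophil-rich dividing cells. Dividing cells with at least 0.5% azurophil UMIs numbered 26 in the wild-type and 404 in the SCD library, and the 4 azurophil genes summed to 21856 and 16223 CPM there, against 192 and 405 CPM in all precursors. Their median S100 share was 1.52% and 0.23%, the latter below that of SCD plasmacytoid DCs. The monocyte list summed to 4053 and 3660 CPM in them against 845 and 1196 CPM in all precursors. Their median granule share was 0.00795% and 0.0467%, so most of them lay below the granule limit of 1%. The set is mixed, with upper quartiles of 11.5% and 10.8% for the S100 share and 1.24% and 1.695% for the granule share. Of the cells that met every other limit of the rule, 7 and 116 were left out by this azurophil limit alone. The G1/S genes of the 26 and 404 cells summed to 3329 and 3419 CPM against 1922 and 1988 CPM in all precursors, and the endoplasmic reticulum chaperones to 6102 and 6771 CPM against 1165 and 1535 CPM. The azurophil gene Prtn3, proteinase 3, was still counted at 112 and 162 CPM in the reduced precursors, and Ms4a3, a marker of committed granulocyte progenitors, at 131 and 143 CPM. In the SCD library that level of Prtn3 is no higher than the 167 CPM of plasmacytoid DCs with under 1% S100 UMIs, whereas those of the wild-type library held 2.97 CPM. A UMI of it was found in 54.4% of the reduced SCD precursors and 27.1% of these SCD plasmacytoid DCs, at median depths of 18756 and 9156 UMIs.

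Between the genotypes all precursors differed mostly in 1 direction. Of 2334 expressed genes 97 (4.16%) were at least 2-fold higher in the SCD precursors and 1 (0.0428%), Stk39, was at least 2-fold lower. In the reduced set 2 of 2103 genes (0.0951%) were higher and 6 (0.285%) lower, so that the higher genes went from 97 of 98 past 2-fold to 2 of 8. Of the 97 genes 27 were expressed in the reduced set and 2 of them were past 2-fold there too. The median log2 ratio of these 27 was 1.23 in all precursors and 0.16 in the reduced set. The median of all expressed genes was -0.01 and -0.11.

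Most of the genes that stood highest in all SCD precursors lay much lower once the 168 cells were left out, with Ctse as the exception at log2 ratios of 3.64 and 3.55. Fn1, fibronectin, stood at 1.09 CPM (wild-type) and 91.7 CPM (SCD) in all precursors but at 1.16 and 6.59 CPM in the reduced set. Lgals1, galectin-1, stood at 11.5 and 190 CPM, and at 1.74 and 12.1 CPM in the reduced set. Mt1, a metallothionein that binds zinc and copper, stood at 21.3 and 249 CPM, and at 18.0 and 42.0 CPM in the reduced set. The other genes named by rule were Ctse, Prdx2, Crip1, Mt2, S100a10, Fabp5, Hspe1, Hmgn1 and Ctsc, with log2 ratios of 2.60 to 3.64 in all precursors, and among these 9 Prdx2, at 1.12, was the one other than Ctse that lay past 1 in the reduced set, though its 2.32 and 11.0 CPM there are under the limit for expressed genes. Erythroid and monocyte markers, which help define the reduced set and so had to fall there, were also higher in all SCD precursors. The erythroid list summed to 49.7 and 534 CPM in all and to 15.1 and 38.8 CPM in the reduced precursors. The 6 monocyte markers used summed to 27.3 and 266 CPM and then to 18.0 and 15.5 CPM. In all precursors the DC markers used were lower in the SCD library, at 23.5 and 15.4 CPM. Those of plasmacytoid DCs were lower too, at 48.0 and 34.1 CPM, and the remaining lists were higher. Epor, Slc4a1 and Alas2 were at 0 in the wild-type precursors. Gene groups of biosynthesis also lay higher in all SCD precursors but not in the reduced set. Heat shock chaperones had a median log2 ratio of 1.25 over 6 expressed genes in all precursors and -0.23 over 4 in the reduced set, and nucleolar and ribosome assembly genes had 1.51 over 8 and -0.02 over 3, so the medians are not over the same genes.

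In the reduced set 8 genes were past 2-fold, 2 of them higher and 6 lower in the SCD precursors. Ctse, cathepsin E, was at 0 CPM in 76 wild-type precursors, with an upper limit of 2.14 CPM, and at 53.5 CPM in the SCD precursors, where 393 of 702 cells (56.0%) had a UMI. Of the 580 SCD plasmacytoid DCs with under 1% S100 UMIs 56.7% had a UMI at a median depth of 9156 UMIs, and they held 88.9 CPM. The 731 wild-type plasmacytoid DCs chosen likewise held 4.68 CPM. Non-dividing granule-stage cells held 15.3 CPM (wild-type) and 118 CPM (SCD), so Ctse was lower in the precursors than in them in both libraries. Retnlg stood at 148 CPM (wild-type) and 444 CPM (SCD), a log2 ratio of 1.55, and 5 and 53 cells with 10 UMIs or more held 56.5% and 68.9% of its counts. Without those cells it stood at 67.3 and 153 CPM, and plasmacytoid DCs held 25.7 and 125 CPM. The class II antigen presentation genes Cd74, H2-Aa, H2-Eb1 and H2-Ab1 were lower in the SCD precursors. Cd74 stood at 311 and 40.1 CPM, but 4 wild-type cells held 81.5% of its counts, and without such cells it stood at 61.1 and 20.2 CPM. Erythroid cells, which should not make it, held 315 and 63.2 CPM. H2-Aa stood at 136 and 16.9 CPM beside 130 and 28.2 CPM in erythroid cells, H2-Eb1 at 111 and 16.8 CPM beside 97.4 and 21.2 CPM, and H2-Ab1 at 127 and 20.5 CPM beside 147 and 57.6 CPM. Srgn, the proteoglycan core of granules, stood at 66.2 and 28.8 CPM, below the 299 and 245 CPM of erythroid cells. Sh3glb1, a membrane-curving protein of autophagy and apoptosis, stood at 75.5 and 34.5 CPM, against 250 and 263 CPM in non-dividing cells and 171 and 166 CPM in plasmacytoid DCs. How far the difference in free RNA makes up these ratios was not tested.

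The genes the rule named as lowest in the SCD precursors were lower by about 2-fold or less. Stk39, a kinase that regulates ion cotransporters, stood at 96.4 CPM (wild-type) and 53.8 CPM (SCD) in the reduced set, a log2 ratio of -0.79, and plasmacytoid DCs of the wild-type library held 0.913 CPM. It was found in 61 of 76 and 382 of 702 cells, against 0.958% and 0.690% of plasmacytoid DCs. Ubb, a polyubiquitin gene, stood at 857 and 447 CPM, a log2 ratio of -0.93, beside 801 and 609 CPM in plasmacytoid DCs. Itgb2l, an integrin β2-like gene of neutrophils, stood at 227 and 157 CPM, a log2 ratio of -0.52, and was found in 76 of 76 and 643 of 702 cells, against 0.684% and 3.45% of plasmacytoid DCs. Olfm4, the olfactomedin that marks a subset of neutrophils, stood at 215 and 124 CPM and was found in 9 of 76 and 64 of 702 cells, so that most precursors of both libraries lacked it. The other genes named by rule, Tasor, Lars2, Evi2, Tmem248, Fam168b, Ncam1, Lpgat1 and Tes, were lower by less than 2-fold in all precursors.

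**Figure D4:**
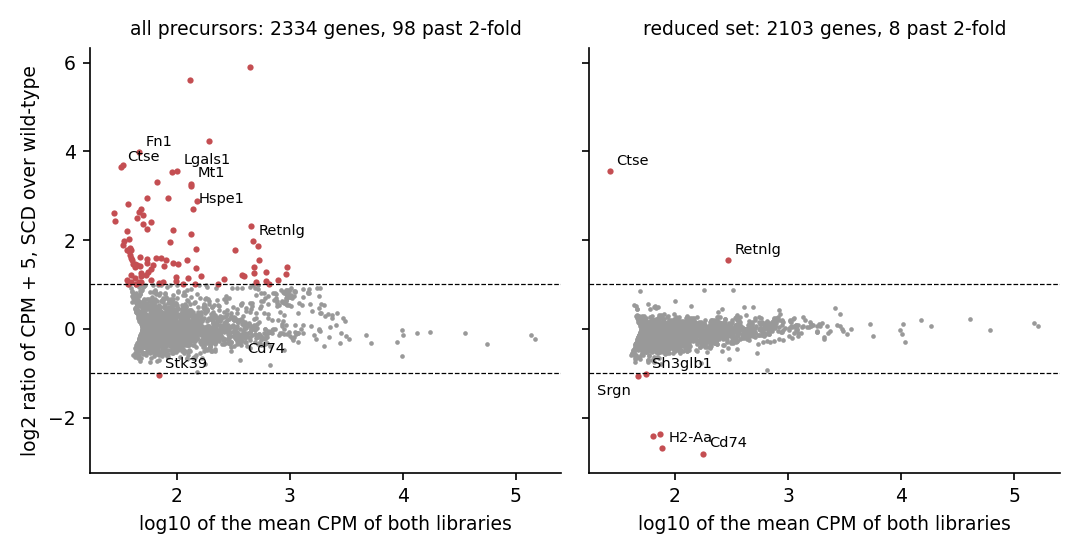
Log2 ratio of CPM plus 5 of SCD over wild-type precursors (y axis) against the log10 of the mean CPM of both libraries (x axis), for all precursors (left) and the reduced set (right), with each point a gene, dashed lines at 2-fold and genes past 2-fold in red. Of 2334 genes 98 lie past 2-fold on the left, nearly all above, and 8 of 2103 on the right.

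Gene groups of the precursors were close between the genotypes once the reduced set was used. Since 8 of all 2103 genes were past 2-fold there (0.0951% higher and 0.285% lower), a list with none past 2-fold does not stand apart from the other genes. Among 12 other specific granule genes expressed there none was past 2-fold, with log2 ratios from -0.78 (Olfm4) to 0.33 (Anxa1) and a median of 0.09. Lcn2 of that list stood at 13953 CPM (wild-type) and 16102 CPM (SCD). Camp, Ngp and Ltf chose the cells of both libraries through the rule and are given as a description. Camp stood at 62245 and 61010 CPM, Ngp at 37411 and 43327 CPM and Ltf at 9878 and 9659 CPM. All 32 expressed G2/M genes outside the rule lay between -0.48 and 0.15, with a median of -0.17, and 13 G1/S genes had a median of -0.24. The 11 expressed histone genes had a median of -0.01. NRF2 target genes, which answer to oxidants and heme, had log2 ratios of -0.12 to 0.16 over 10 expressed members, and none was past 2-fold. Txn1, thioredoxin, for example, stood at 1175 and 1186 CPM. Iron handling genes had a median of -0.17 over 5 members, with the ferritin genes Fth1 at 469 and 412 CPM and Ftl1 at 696 and 809 CPM. Of 71 expressed oxidative phosphorylation genes none was past 2-fold, with a median of -0.06. The interferon-stimulated list had a median of 0.07 over 2 expressed genes, with Ifitm3 at 0.09. In all precursors, oxidative phosphorylation genes had a median of 0.28, iron handling genes 0.44 and interferon-stimulated genes 0.76, with 2 of 4 expressed members of the last past 2-fold higher where 4.16% of all genes were, all above their medians in the reduced set.

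The balance of the cell cycle was alike within counting error. After thinning to 2000 UMIs, 9 of 80 wild-type precursors (11.3%) and 110 of 869 SCD precursors (12.7%) held more G1/S than G2/M UMIs, a ratio of 1.13 (0.572 to 2.53), and 1 SCD cell was too shallow. Without thinning the shares were 11.3% and 14.0%, and in the reduced set 10.5% and 11.3% after thinning. With the mitotic genes of the rule taken out of the G2/M side they were 17 of 80 (21.3%) and 177 of 869 (20.4%), a ratio of 0.959 (0.582 to 1.68), so the level of the share depends on that choice. The intervals leave room for ratios well under and well over 1. The rule itself asks for mitotic transcripts and so selects against cells on the G1/S side.

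Fcnb and the progenitor marker Ms4a3 were counted at higher levels on the G1/S side in both libraries. In the reduced set, without thinning, this side held 8 wild-type and 94 SCD cells, against 68 and 608 on the other side, at near-equal median depth (22475 and 21339 UMIs in the wild-type, 18778 and 18746 in the SCD library). Pcna, the replication clamp and 1 of the genes that set the sides, stood at 787 and 174 CPM in the wild-type and 525 and 120 CPM in the SCD library. Fcnb, which set none of them, stood at 1647 (1464 to 1846) and 1004 (955 to 1055) CPM in wild-type cells. In the SCD cells it stood at 1686 and 851 CPM, with intervals that do not meet. Ms4a3 stood at 201 (141 to 278) and 123 (106 to 142) CPM in wild-type cells, a ratio of 1.63 (1.11 to 2.34). These CPM intervals just meet. In SCD cells Ms4a3 stood at 197 and 135 CPM. On the wild-type G1/S side a single cell held 82 of 295 Fcnb UMIs, and a single cell held 12 of 36 Ms4a3 UMIs. Without the highest cell of each side, wild-type Fcnb stood at 1374 and 934 CPM and Ms4a3 at 155 and 112 CPM. With the sides set without the mitotic genes of the rule (14 and 62 wild-type, 136 and 566 SCD cells), an alternative chosen after seeing the data, the ratio between the sides was 1.63 (1.47 to 1.81) and 1.98 (1.91 to 2.06) for Fcnb and 1.29 (0.928 to 1.78) and 1.56 (1.40 to 1.72) for Ms4a3, so the wild-type interval of Ms4a3 then included 1. Elane and Prtn3 were used by the rule through the azurophil limit and are given as a description. Elane, neutrophil elastase, stood at 257 and 55.7 CPM in the wild-type library, where 4 of 8 and 8 of 68 cells had a UMI, with 28 of 46 and 39 of 86 UMIs in a single cell. Without those cells it stood at 116 and 31.2 CPM. It stood at 374 and 82.9 CPM in the SCD library, where 58 of 94 (61.7%) and 198 of 608 (32.6%) had one. Prtn3 stood at 195 and 102 CPM, and at 379 and 129 CPM. With the sides set without the mitotic rule genes, the ratio of Prtn3 was 1.12 (0.770 to 1.61) in the wild-type library. SCD plasmacytoid DCs held 109 CPM of Elane, with a UMI in 16.4% of them and a median of 0 per cell. Camp and Ltf belong to the granule limit that every precursor met, so they too are given as a description. Camp, at 61442 and 62338 CPM and at 57792 and 61507 CPM, and Ltf were nearly level between the sides. Their SCD ratios, 0.940 (0.934 to 0.946) and 0.904 (0.889 to 0.919), still lay under 1. Cebpe was slightly lower on the G1/S side, at 642 and 703 CPM and at 572 and 724 CPM. Its ratio was 0.913 (0.747 to 1.107) in the wild-type library, where the interval included 1, and 0.790 (0.740 to 0.843) in the SCD library. The cells of 1 library are not replicates, so these are differences within 2 mice, and the 8 wild-type cells give wide counting limits.

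**Figure D5:**
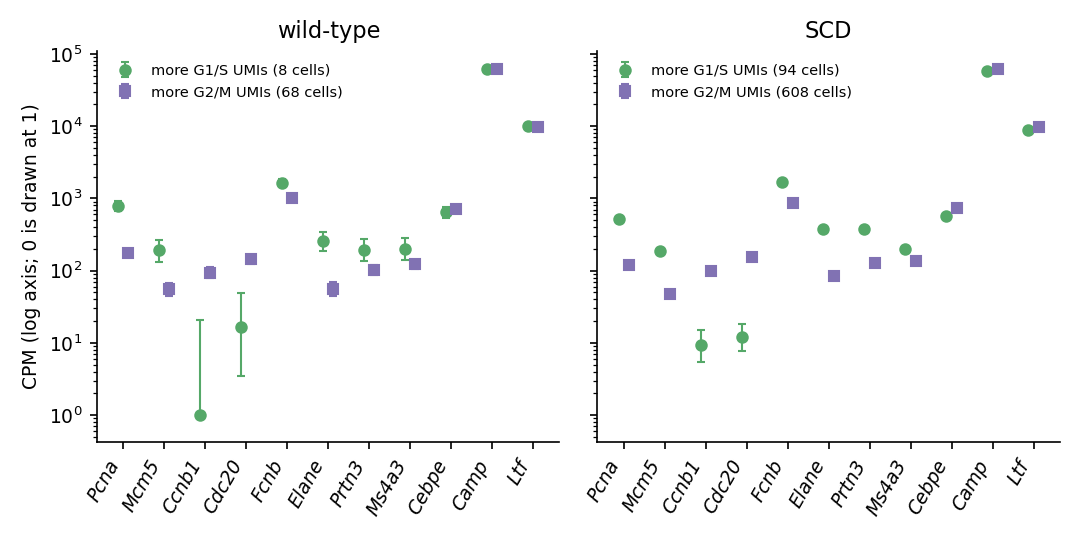
CPM (y axis, log scale, with 0 drawn at 1) of 11 genes in reduced precursors with more G1/S UMIs (green circles, 8 wild-type and 94 SCD cells) or more G2/M UMIs (purple squares, 68 and 608 cells), wild-type left and SCD right, with exact 95% Poisson intervals. Fcnb, Elane, Prtn3 and Ms4a3 lie higher on the G1/S side in both libraries, while Camp and Ltf overlap or nearly so. Elane, Prtn3, Camp and Ltf are genes of the rule that chose the cells.

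The precursors were also divided into ranges by set limits. By granule share, 22 wild-type and 122 SCD cells of the reduced set lay between 5% and 10%, 54 and 579 at 10% or more, and 0 and 1 under 5%. The lower range held more of some transcripts of other stages, mostly in few cells. Mmp8 stood at 276 CPM in the lower and 0.793 CPM in the upper range of the wild-type library, and at 176 and 41.6 CPM in the SCD library. Retnlg stood at 382 and 62.6 CPM, and at 1088 and 305 CPM. Elane stood at 195 and 33.3 CPM, and at 258 and 89.3 CPM. Cells with 10 UMIs or more of the gene held much of this. In the wild-type lower range 3 cells held 92.1% of the Mmp8 UMIs, 5 held 81.8% of those of Retnlg and 3 held 94.4% of those of Elane. Without such cells Mmp8 stood at 23.7 and 0.793 CPM in the wild-type ranges and at 33.9 and 15.6 CPM in the SCD ranges. Retnlg then stood at 82.6 and 62.6 CPM, and at 150 and 154 CPM, and Elane at 14.3 and 20.2 CPM, and at 42.4 and 28.0 CPM. The order of the ranges thus turned for Elane in the wild-type and for Retnlg in the SCD library.

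By mitotic UMIs, precursors with 5 to 20, 21 to 60 and over 60 UMIs numbered 18, 13 and 45 in the wild-type and 203, 181 and 318 in the SCD reduced set. Their median depth went up along this order, with 14926, 19817 and 22937 UMIs in wild-type cells and 14813, 17657 and 21854 UMIs in SCD cells, so the ranges also differ in depth. Histone transcripts stood at 682, 3718 and 6312 CPM in wild-type cells and at 705, 7532 and 7001 CPM in the SCD library. S100a6, which was lower in precursors than in non-dividing cells, stood at 1151, 600 and 167 CPM in wild-type cells and at 848, 564 and 454 CPM in the SCD library. Mmp9 stood at 442, 109 and 88.0 CPM, and at 199, 126 and 124 CPM. Over the whole reduced set 9 wild-type and 69 SCD cells with 10 UMIs or more held 69.1% and 61.2% of the Mmp9 UMIs, and whether its order holds without them was not tested.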

How the data were processed

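Spleen cells of 1 wild-type and 1 SCD mouse were measured with 10x Genomics 3′ v3.1 chemistry. The deposited files hold unnormalized UMI counts of each gene in each cell, which the authors made with Cell Ranger 4.0.0 on GRCm38.p6, as the submitters' processing notes name them. Intron handling is not given in the sources used here. Counts were read in Python 3.11.15 (numpy 2.4.6, pandas 2.3.3, scipy 1.17.1, scanpy 1.11.5, matplotlib 3.10.9), summed over cells and scaled to CPM. Doublets were called with Scrublet and kept in the main sets. Genes past 2-fold (pseudocount 5 CPM, at least 50 CPM and 20 UMIs in 1 library) were counted without a test, since each group held 1 sample. Thinning drew 2000 UMIs per cell with a fixed seed, and the fold counting was tested on simulated data.

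The precursors and the gene lists were chosen with earlier results of these data known. Named genes were the 12 highest and 12 lowest by log2 ratio of SCD over wild-type precursors and of precursors over non-dividing cells in both libraries, leaving out genes of the rule, globin, immunoglobulin, T cell receptor, mitochondrial, ribosomal and sex-linked genes and markers of other cells from the first, and the mitotic rule genes from the second. Members of the gene lists were named too. The 7 markers that precursors hold widely or that are common free RNA (Ly6c2, Vcam1, Tcf4, Cd3d, Cd74, H2-Ab1 and H2-Eb1) were not used to define the reduced set. Alternatives covered the limits of the rule, filters, thinning, pseudocount, scaling and doublets.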

Additional observations from a re-analysis of the deposited data

Results flagged for a closer look

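Cells over the mitochondrial or ribosomal limit were not used. Among them 13 of 983 SCD cells (1.32%, 0.706% to 2.25%) met the rest of the rule, against 1 of 631 wild-type cells (0.158%, 0.00401% to 0.880%). This signal lies outside the cells compared above and is higher in the SCD than in the control library. Counting these cells too gave a ratio of precursor shares of 8.79 against 8.92.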

How the results depend on the processing

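No paired analysis was possible because the labels give 1 mouse per genotype, and for the same reason no replicate could be left out. The ratio of precursor shares was 8.92 and moved beyond its interval with neutrophils as denominator (6.45) and, in an alternative added after seeing the data, with granule-stage neutrophils as denominator (1.38). Under the other alternatives the ratios of the shares, of the thinned shares and of the cell cycle balance stayed within the counting intervals of the main ratios, although single shares moved with the depth and the gene list. The thinned shares were 10.7% and 12.3% at up to 5000 genes, 11.3% and 13.2% without called doublets and 9.20% and 11.8% at 1000 UMIs. There the wild-type interval (8.32% to 13.6%, 8.70% to 14.25% and 6.97% to 11.86%) held the SCD share, unlike in the main setting and at 5000 UMIs. Over the alternatives the thinned SCD share of dividing cells ran from 11.8% to 15.7%, against 19.1% without thinning, and the wild-type share on the G1/S side from 8.75% to 21.3%. The count of genes at least 2-fold higher, 97, went to 396 with 20 UMIs as the only minimum, 26 with the mean of each cell's CPM, 14 at up to 5000 genes per cell, 18 with both limits at 3% and 2 in the reduced set, which was added after seeing the data. The count of genes at least 2-fold lower, 1, went to 0 with a pseudocount of 20 CPM, 13 with 20 UMIs as the only minimum, 0 at up to 5000 genes, 0 with both limits at 3% and 6 in the reduced set. Gene lists with a gene 2-fold higher, 11 of 28, went to 6 with the mean of cells, 2 at up to 5000 genes, 2 with both limits at 3% and 1 in the reduced set. Genes at least 2-fold higher in SCD precursors than in non-dividing cells went from 690 to 375 in the reduced set. The median of the heat shock list reversed to -0.18 at up to 5000 genes and -0.23 in the reduced set, that of the ribosome assembly list to -0.015 and the log2 ratio of S100a10 to -0.094, both in the reduced set. In alternatives added after seeing the data, the ratio of the G1/S over the G2/M side in wild-type cells went from 4.61 to 2.38 for Elane and from 1.91 to 1.12 for Prtn3 with the sides set without the rule genes, and in all SCD precursors it went to 1.65 for Fcnb, 1.16 for Ms4a3, 2.44 for Elane and 1.70 for Prtn3. The cause of these shifts was not tested. The wild-type depth of 80 precursors and 1832253 UMIs limits all ratios.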
